A study of Rattus norvegicus with 12 samples.

Results

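C1qa, C1qb and C3 are 3 complement genes, described here in rat hearts after a sham operation, after myocardial infarction (MI) and after an infarct treated with a cardiac patch (the Patch group). They were taken by Ensembl rat gene ID from a deposited table of 19955 genes. The IDs are ENSRNOG00000012807 for C1qa, ENSRNOG00000012804 for C1qb and ENSRNOG00000046834 for C3, and each of the 3 was found. The table gives no symbols, and 0 of its IDs matched the RefSeq gene table used here, so the names rest on the list that chose the genes and were not checked against an annotation. In particular, which C1q chain ENSRNOG00000012804 encodes was not checked, and it may be C1qc rather than C1qb. C1qb below means that ID, except for the promoter and the gene order, which are those RefSeq lists under the symbol C1qb. All animals were wild-type Sprague Dawley rats, and the tissue was heart. Sham animals were operated on but not infarcted, and in the Patch group the patch was stitched to the border of the infarct. The labels give neither the age of the rats, nor the time after surgery, nor the material of the patch, and for the same lack of symbols the tissue could not be checked by its marker genes. Libraries used were 2 sham, 4 MI and 4 Patch. The labels describe 4 sham samples, and 2 columns named ctrl match no label and were not used; whether they are the other sham samples is not known, and every comparison with sham depends on this. Whether each came from a separate animal is not stated, and the tests measure only the spread between these libraries.

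C1q is the recognition protein of the classical complement pathway. It is built from A, B and C chains, encoded by C1qa, C1qb and C1qc, and it binds antibody on a surface as well as dying cells and debris. Macrophages and related cells make most of the C1q in tissues. C3 is the protein on which the classical, lectin and alternative pathways converge. Its cleavage yields C3b, which coats targets for uptake, and C3a, a small peptide that attracts and activates inflammatory cells. The liver makes most of the C3 in plasma, and many other cells can make it locally under inflammatory stimulation. Dying tissue after an infarct is a known setting of complement activation.

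The C1q genes neighbour each other on rat chromosome 5 in the order C1qb, C1qc, C1qa, between Ephb2 and Epha8, whereas C3 lies on chromosome 9. The 250 bases before the start of each gene are printed here from RefSeq (build GRCr8, newer than the rn6 build named for the deposited data), because the 2 C1q IDs varied together across libraries and C3 only in part of them. They lie on the minus strand at chr5:154419934-154420183 (C1qa), chr5:154407828-154408077 (C1qb) and chr9:2201340-2201589 (C3), and read 5′ to 3′ toward the gene. Capitals mark a match to one of the motifs searched. The C1qb window is that of the symbol, and whether it belongs to the ID measured here was not checked.
C1qa: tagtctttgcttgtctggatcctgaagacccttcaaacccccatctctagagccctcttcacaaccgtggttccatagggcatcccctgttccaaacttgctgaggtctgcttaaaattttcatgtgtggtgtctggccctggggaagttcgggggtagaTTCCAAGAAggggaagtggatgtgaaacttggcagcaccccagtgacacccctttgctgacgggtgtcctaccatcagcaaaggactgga
C1qb: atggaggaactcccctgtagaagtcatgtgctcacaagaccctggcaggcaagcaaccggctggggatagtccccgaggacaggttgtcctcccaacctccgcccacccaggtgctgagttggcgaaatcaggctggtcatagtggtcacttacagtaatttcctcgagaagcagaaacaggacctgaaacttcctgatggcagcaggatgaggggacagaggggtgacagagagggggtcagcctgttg
C3: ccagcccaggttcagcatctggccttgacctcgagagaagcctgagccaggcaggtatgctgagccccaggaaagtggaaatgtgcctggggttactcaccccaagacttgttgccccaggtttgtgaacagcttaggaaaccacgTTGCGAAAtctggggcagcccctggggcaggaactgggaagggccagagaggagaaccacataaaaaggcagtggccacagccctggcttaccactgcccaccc

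Each window was searched on both strands for a TATA box (TATAAA), a PU.1 site (GAGGAAG), a C/EBP site (TTGCNNAA), a GAS element for STAT factors (TTCNNNGAA) and an AP-1 site (TGANTCA). The C3 window held one C/EBP match, 104 to 97 bases before the start. C/EBP factors are activators of acute-phase genes in liver and macrophages. The C1qa window held one GAS match, 90 to 82 bases before the start, and the C1qb window held no match to these letters. Matches are common: among 33469 rat promoters of this length, 9.22% held the C/EBP letters and 7.67% the GAS letters. The TATA letters were in 12.9% of promoters, the PU.1 letters in 10.2% and the AP-1 letters in 6.34%. None of these motifs was shared by the 3 windows. An NF-kB motif, also searched, is not covered by this statement.

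Depth followed the groups: the 4 MI libraries had 12932419 to 14110864 recovered reads, each more than any sham or Patch library (11420710 to 12565137). The signal given by 1 read was also lower in each MI library, 0.790 to 0.929, than in the others, 0.996 to 1.12. Depth, scaling and MI therefore cannot be told apart. MI2 stood apart in counts over all genes: 5474 genes were at 0 in it, against 2400 to 3335 in the other 9 libraries, and 169 genes had exactly 1 read, against 632 to 979. The group means and differences that rest on MI2 are therefore given with and without it. P699, a Patch library, was not unusual in these counts (2781 genes at 0) but differed from the other 3 Patch libraries over all genes as well as in the complement genes. Its correlation with them across genes was 0.969 to 0.974, against 0.980 among those 3, and its limma sample weight was 0.966, against 1.57 to 2.25. It was not apart beside the MI libraries, whose correlations with each other were all lower, up to 0.967 (MI1 with MI162), and whose weights were 0.193 in MI2, 0.385 in MI1, 0.975 in MI165 and 1.01 in MI162. Results are also given without it. Leaving out a library for its values in these genes favours a difference, so the values without P699 are a description.

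C1qa, which encodes the A chain, was at a normalized signal of 1186 in sham1 and 1927 in sham2. In the MI hearts it was 3688 in MI1, 2279 in MI2, 4531 in MI162 and 3057 in MI165. In the Patch hearts it was 1428 in P695, 1818 in P697, 4548 in P699 and 1932 in P985. Each MI library thus lay above both sham libraries, 3 Patch libraries lay at or near sham, and P699 was the highest of the 10. The group mean was 1557 ± 524 (SD, n = 2) for sham hearts. It was 3388 ± 955 for MI hearts and 2431 ± 1427 for Patch hearts (SD, n = 4 each). Without MI2 the MI mean was 3758 ± 740 (SD, n = 3). Without P699 the Patch mean was 1726 ± 265 (SD, n = 3), so that single library held much of the Patch spread.

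The gene listed as C1qb, which may encode the B or the C chain, had a similar pattern but not the same order of libraries: MI162 was highest and P695 lowest. Its signal was 1655 and 2438 in sham1 and sham2. In MI it was 3972 in MI1, 2506 in MI2, 5147 in MI162 and 3732 in MI165. The lowest MI library, MI2, was only just above sham2. In Patch it was 1574 in P695, 2368 in P697, 4692 in P699 and 2302 in P985, so the Patch libraries other than P699 lay below all MI libraries, within the sham range or, in P695, just under it. The sham mean was 2047 ± 553 (SD, n = 2), and the means of MI and Patch were 3839 ± 1082 and 2734 ± 1354 (SD, n = 4 each). Without MI2 the MI mean was 4283 ± 757 (SD, n = 3), and without P699 the Patch mean was 2081 ± 441 (SD, n = 3).

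C3 had a low signal in sham, 55.5 in sham1 and 34.2 in sham2. These rest on 50 and 31 reads, and their exact 95% Poisson intervals, which cover counting error only, were 41.2 to 73.2 and 23.2 to 48.5. In MI the C3 signal was 780.2 in MI1, 39.0 in MI2, 2854 in MI162 and 571 in MI165. Hence 3 MI libraries were more than 10 times the sham mean while MI2, with 42 reads (interval 28.1 to 52.8), was within the sham range. In Patch it was 159 in P695, 44.7 in P697, 1271 in P699 and 129 in P985. P697 was again at the sham level, P695 and P985 lay between sham and the 3 high MI libraries, and P699 was second to MI162 alone. Relative to the sham mean of 44.8 ± 15.1 (SD, n = 2), the MI libraries were at 17.4, 0.870, 63.7 and 12.7 times, and the Patch libraries at 3.56, 0.996, 28.4 and 2.88 times, each in the order given. The MI mean was 1061 ± 1235 (SD, n = 4), and 1402 ± 1262 without MI2 (SD, n = 3). Both means include MI162, at 2854, and the median of the 4 MI libraries was 676. The Patch mean was 401 ± 582 (SD, n = 4), and 111 ± 59.5 without P699 (SD, n = 3). The SD thus exceeded the mean in MI and in Patch with all libraries.

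**Figure D1:**
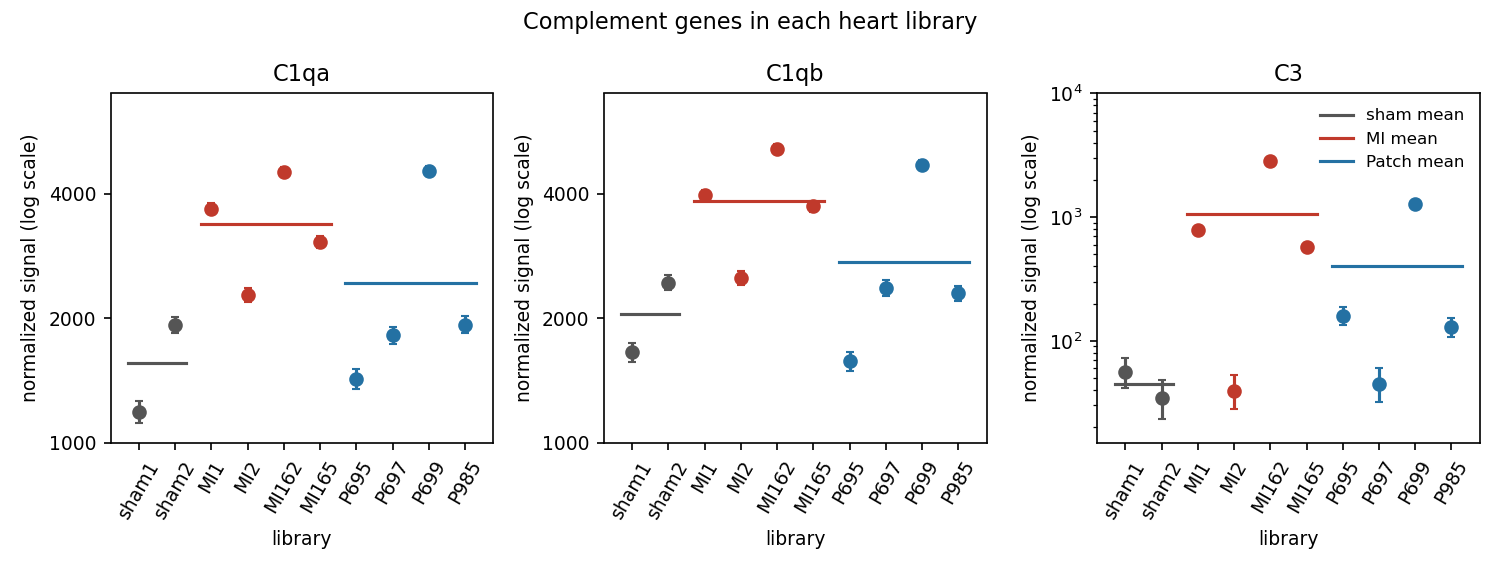
Normalized signal of C1qa, C1qb and C3 (vertical axes, log scale) in each of the 10 libraries (horizontal axis). Points are libraries with exact 95% Poisson counting intervals, and lines are group means. For C1qa and C1qb the 4 MI points lie above both sham points, while for C3 MI2 lies at the sham level (39.0), and P699 lies with the MI libraries in all 3 panels.

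Infarcted hearts were compared with sham hearts to ask whether these genes differ after infarction. All 3 had higher means in MI, but none passed the test across all genes, in which 15.4% of 17091 genes were called, 7.30% higher and the rest lower in MI. The log2 difference of C1qa was 1.12 (SE 0.417, 95% interval 0.20 to 2.04, limma adjusted p 0.0926), a fold of 2.17 on the log2(signal + 1) scale. For C1qb it was 0.89 (SE 0.387, 95% interval 0.04 to 1.74, limma adjusted p 0.144), a fold of 1.85. C3 had the largest point estimate and the widest interval, 3.41 (SE 1.49, 95% interval 0.15 to 6.68, limma adjusted p 0.144), a fold of 10.7 with an interval from 1.11 to 102.6. That fold is of means on the log2(signal + 1) scale, and the ratio of the mean C3 signals was 23.7, or 31.3 without MI2. Both ratios include MI162, whose C3 signal was 2854 against an MI median of 676. The unadjusted p was 0.0211, 0.0421 and 0.0420 in limma for C1qa, C1qb and C3, and 31.0% of all genes had an unadjusted p under 0.05.

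MI and sham did not overlap in C1qa or C1qb, with each of the 8 MI and sham pairs higher in MI. Of all genes tested, 17.1% were without overlap and higher in MI, so this alone does not set the C1q genes apart. C3 overlapped through MI2, with 7 of 8 pairs higher in MI. In exact two-sided permutation tests over the 6 libraries p was 0.133 for C1qa and for C1qb, the smallest that 4 against 2 libraries can give, and 0.267 for C3. Among all genes, 12.8% had a larger rise than C1qa, 16.8% than C1qb and 0.831% (142 genes) than C3, against a median difference over all genes of 0.012 (log2).

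Whether the genes passed in MI versus sham depended on the method and on single libraries. With all 10 libraries, C1qa (adjusted p 0.0490) and C3 (adjusted p 0.0136) passed in DESeq2, which called 22.9% of genes, and C1qb did not (adjusted p 0.0895). With limma sample weights, where 33.2% of genes were called, all 3 passed, at adjusted p 0.0295 for C1qa, 0.0419 for C1qb and 0.0125 for C3. In edgeR, which called 2303 of 17091 genes, none of the 3 passed (adjusted p 0.109 to 0.163). With the libraries scaled to equal totals the differences were 1.36 for C1qa (limma adjusted p 0.0533), 1.13 for C1qb (0.0787) and 3.65 for C3 (0.115), the median of all genes was 0.242, and 73.5% of calls were higher in MI, against 47.3% as deposited. Without MI2, where 29.1% of genes were called, the C1qa difference was 1.29 (SE 0.419, limma adjusted p 0.0412) and the C3 difference was 4.60 (SE 1.13, limma adjusted p 0.0126). C1qb did not pass without MI2, at 1.08 (limma adjusted p 0.0544). In edgeR without MI2, which called 27.4% of genes, C3 passed (adjusted p 0.0359) but C1qa (adjusted p 0.0686) and C1qb (adjusted p 0.0779) did not. Without both MI2 and P699 all 3 passed in MI versus sham, where limma called 28.5% of genes and edgeR 26.8%, and in Patch versus MI, where they called 28.4% and 27.2%; these fits were chosen after seeing the data. Leaving out P699, which is in neither group but enters the shared spread, put C1qa past the threshold with its difference unchanged at 1.12 (limma adjusted p 0.0290, with 14.2% of genes called). In the same fit C1qb (limma adjusted p 0.0684) and C3 (limma adjusted p 0.105) did not pass. Without MI162, the library with the most C3, the C3 difference was 2.55 (limma adjusted p 0.281). With 1 sham library only the sizes are read here. Without sham1 the differences were 0.77 for C1qa, 0.61 for C1qb and 3.76 for C3. Without sham2 they were 1.47, 1.17 and 3.07. In such fits the lone sham library was assumed to vary like the other groups.

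Patch hearts were compared with MI hearts to ask whether these genes differ with the patch. The means of all 3 were lower in Patch, and none passed the test, in which 13.2% of genes were called, 5.45% lower in Patch. The log2 difference was −0.59 for C1qa (SE 0.341, 95% interval −1.34 to 0.16, limma adjusted p 0.269). It was −0.56 for C1qb (SE 0.316, 95% interval −1.26 to 0.13, limma adjusted p 0.254) and −1.35 for C3 (SE 1.21, 95% interval −4.02 to 1.32, limma adjusted p 0.485). The intervals reach from a Patch level of 0.396 times the MI level to 1.12 times for C1qa, from 0.419 to 1.10 times for C1qb and from 0.0618 to 2.49 times for C3, and so include equal levels as well as falls down to the lower limits named. The exact two-sided permutation p over the 8 libraries was 0.229 for C1qa, 0.229 for C1qb and 0.457 for C3, where the smallest possible is 0.0286. With the libraries scaled to equal totals, 1864 genes were called lower in Patch and 806 higher, against 931 lower and 1320 higher as deposited. The differences were then −0.77 for C1qa (limma adjusted p 0.161), −0.74 for C1qb (0.149) and −1.53 for C3 (0.419).

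P699 lay apart from the other 3 Patch libraries. P695, P697 and P985 were below all 4 MI libraries in both C1q genes, while P699 was above every MI library in C1qa and second to MI162 in C1qb. Without P699, 12.3% of all genes were lower in Patch with no overlap. C1qa was then past the threshold, at −0.94 (SE 0.251, limma adjusted p 0.0393), among the 12.3% of genes called without P699. C1qb at −0.86 (limma adjusted p 0.0546) and C3 at −2.27 (SE 1.14, limma adjusted p 0.212) were not. In C3 no Patch library lay below all MI libraries, because MI2 was lower than every one of them. Without MI2, where 28.2% of genes were called, the limma differences were −0.76 for C1qa (adjusted p 0.130), −0.75 for C1qb (adjusted p 0.0996) and −2.54 for C3 (adjusted p 0.0690). Without MI162 the C3 difference was −0.49 (limma adjusted p 0.837), and without P697 it was −0.67 (limma adjusted p 0.778). Without P695 the C1qa difference was −0.38 (limma adjusted p 0.547) and the C1qb difference −0.34 (limma adjusted p 0.548).

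Patch was compared with sham to ask how far these genes differ from surgery without an infarct. In limma 0% of genes were called (0 of 17091, with 3.07% at an unadjusted p under 0.05; edgeR also called 0 and DESeq2 15). The log2 difference of C1qa was 0.53 (95% interval −0.39 to 1.45), of C1qb 0.33 (95% interval −0.52 to 1.18) and of C3 2.06 (95% interval −1.20 to 5.33), each with a limma adjusted p of 1.00. The C3 difference was larger than that of all but 0.761% of genes, yet its interval included 0. Leaving out one library moved them widely: C1qa was 0.18 without P699 or without sham1 and 0.88 without sham2. C1qb was 0.03 without P699, 0.05 without sham1, 0.55 without P695 and 0.61 without sham2. C3 ranged from 1.14 without P699 to 2.74 without P697. For C3 the difference was 3.18 in edgeR (adjusted p 1.00) and 3.16 in DESeq2 (adjusted p 1.00). In C3, 3 of 4 Patch libraries lay above both sham libraries, and in C1qa 2 of 4, of which P985 only just (1932 against 1927 in sham2). In C1qb 1 of 4 lay above both sham libraries and 1 below both. The exact two-sided permutation p was 0.400 for C1qa, 0.933 for C1qb and 0.267 for C3, where the smallest possible is 0.133. The 3 comparisons share libraries, Patch versus MI and MI versus sham sharing MI, so their signs are not independent.

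**Figure D2:**
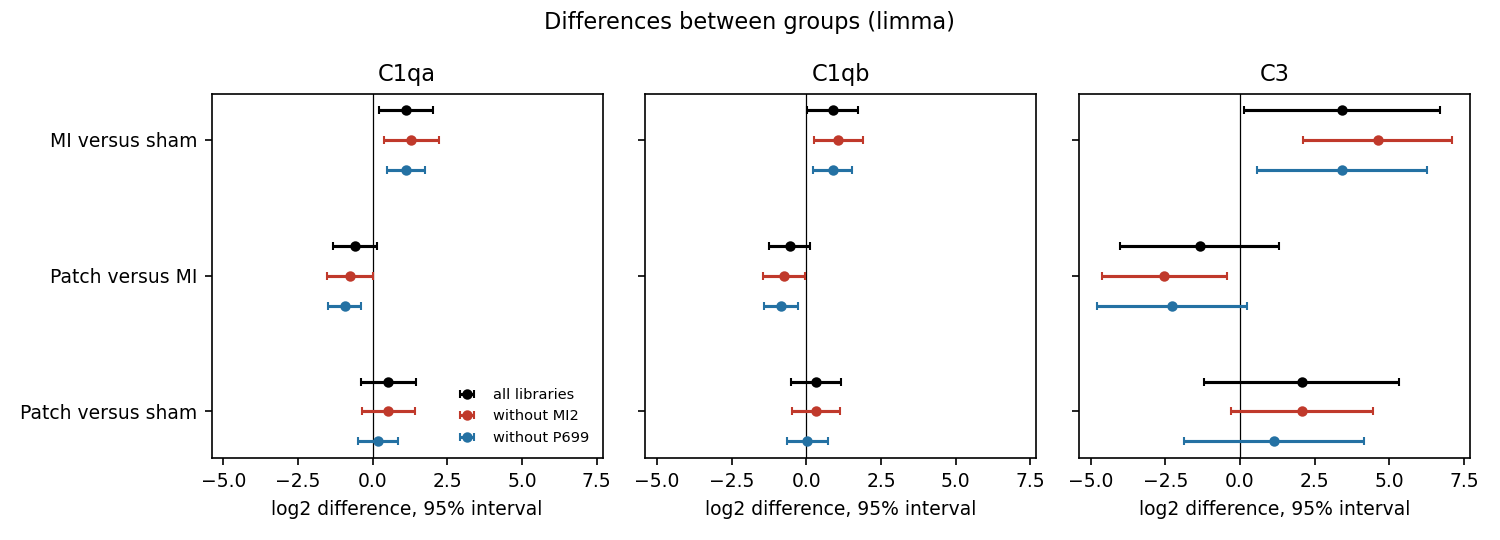
Log2 differences of C1qa, C1qb and C3 (horizontal axes, with unadjusted 95% intervals from limma) for the 3 comparisons, with all 10 libraries (black), without MI2 (red) and without P699 (blue). All points for MI versus sham lie right of 0 and all for Patch versus MI lie left of 0. Leaving out MI2 moved C3 most, from 3.41 to 4.60 in MI versus sham and from −1.35 to −2.54 in Patch versus MI.

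**Figure D3:**
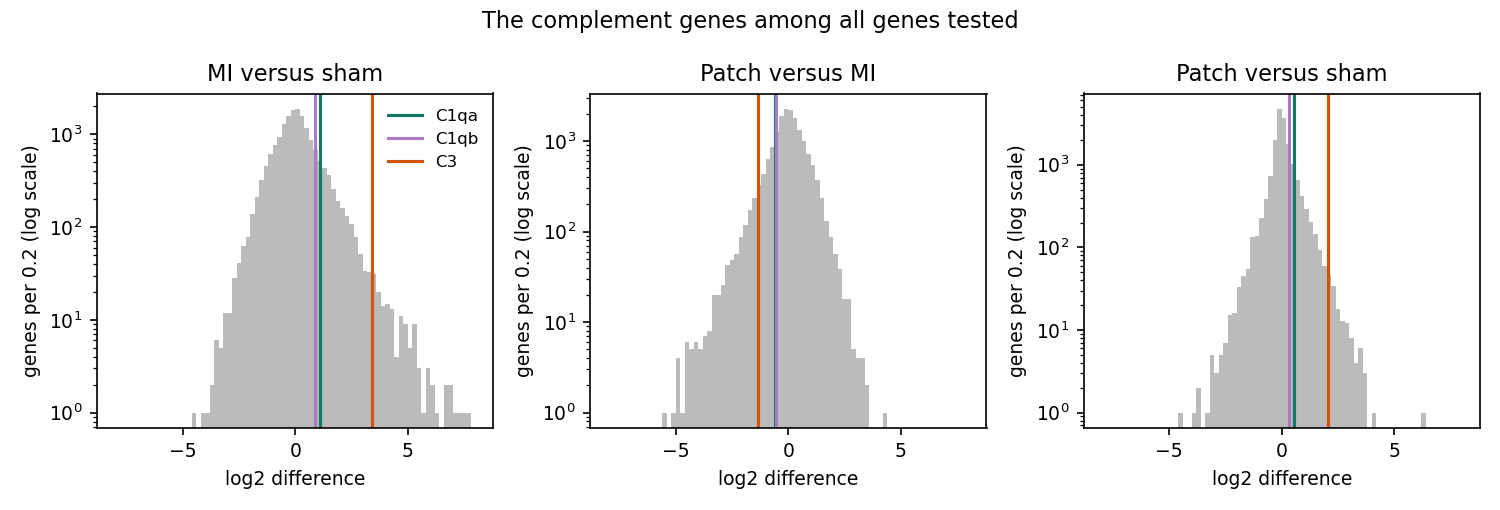
Numbers of genes (vertical axes, log scale) by log2 difference (horizontal axes) for all 17091 genes tested in each comparison, with C1qa, C1qb and C3 as vertical lines. The C1q lines stay within the main body of genes, and the C3 line lies in the upper tail in MI versus sham (3.41) and Patch versus sham (2.06).

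The 2 C1q genes kept nearly the same proportion while their levels varied. C1qa varied 3.84-fold and C1qb 3.27-fold from the lowest to the highest of the 10 libraries, whereas the C1qb signal divided by the C1qa signal varied 1.35-fold. That ratio was 1.40 and 1.27 in sham1 and sham2, 1.08 to 1.22 in MI and 1.03 to 1.30 in Patch. Both sham ratios were above each MI ratio, and the Patch ratios spanned from below MI into the sham range. The lowest ratio was that of P699, the library with the highest C1qa in the deposited scaling. Signals were not divided by gene length, so only the change of a ratio between libraries is read, not its size.

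C3 moved over a far wider range than C1q, 83.5-fold across the 10 libraries. As a percent of the C1qa signal it was 4.68 and 1.77 in sham1 and sham2. In MI it was 21.2 in MI1, 1.71 in MI2, 63.0 in MI162 and 18.7 in MI165. In Patch it was 11.2 in P695, 2.46 in P697, 28.0 in P699 and 6.67 in P985. In MI2, C1qa was above both sham libraries, at 1.46 times the sham mean, while C3 was within the sham range, at 0.870 times. The MI2 value is from the library with the most genes at 0, and the part of that in its C3 value was not tested.

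**Figure D4:**
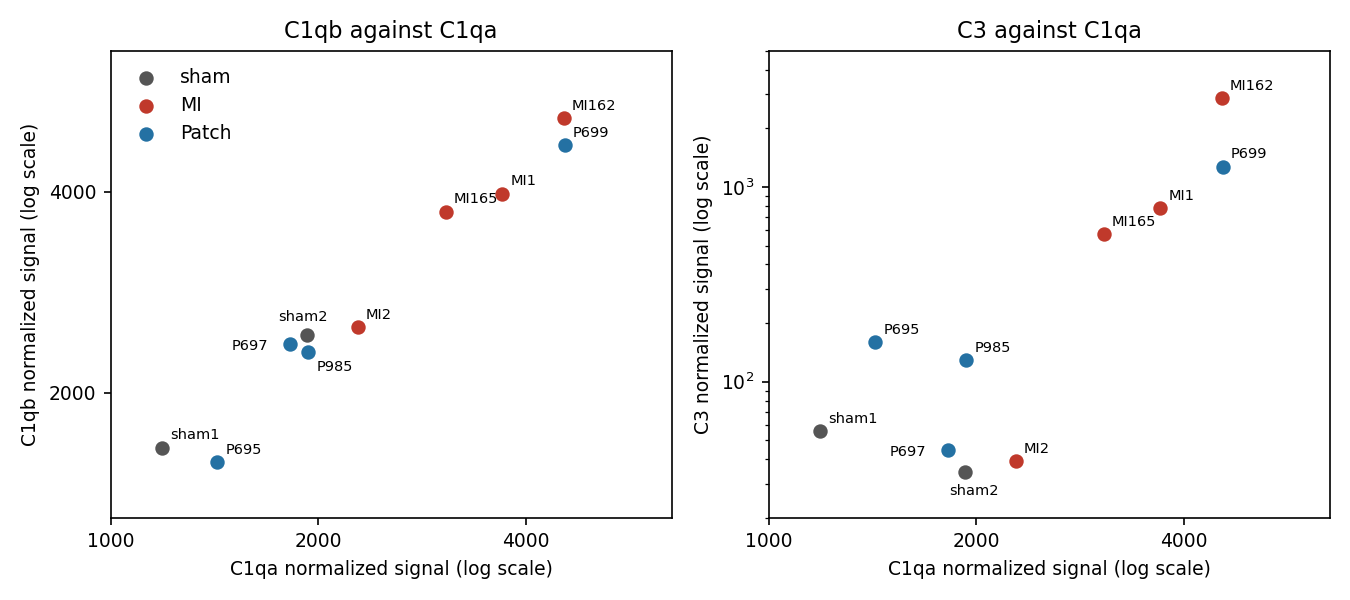
C1qb (left) and C3 (right) normalized signal against C1qa normalized signal (all axes log scale), 1 point per library, colored by group. C1qb follows C1qa closely across the 3 groups, while C3 spans from 34.2 to 2854 and is at the sham level in MI2 and P697.

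The spread of C3 within MI and within Patch was among the widest of all genes, and a single library held much of it in each. Among the 11440 genes whose mean signal reached 50, the SD of log2(signal + 1) was 2.58 for C3 in MI (median of all genes 0.360) and 2.01 in Patch (median 0.178), larger than in 99.6% and 99.7% of genes. The C3 SD was 1.23 in MI without MI2 and 0.971 in Patch without P699. In sham, with 2 libraries, C3 was not apart from C1q: the SDs were 0.484 for C3, 0.495 for C1qa and 0.395 for C1qb, larger than in 92.3%, 92.7% and 89.0% of genes. C1qa and C1qb were ordinary in MI, with SDs of 0.421 and 0.429. In Patch their SDs of 0.729 and 0.656 were larger than in 96.1% and 95.2% of genes, with P699 as the highest Patch library in both.

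As a description over the 10 libraries, which share their depth and scaling, the gene most like C1qb by Pearson correlation of log2(signal + 1) was C1qa (r = 0.985, rank 1 of 11439 genes), and C1qb ranked 2 for C1qa. With group means subtracted r was 0.983, and C1qa ranked 2 for C1qb and C1qb 3 for C1qa. C3 ranked 384 for C1qa (r = 0.838) and 515 for C1qb (r = 0.819), and with group means subtracted 465 (r = 0.756) and 570 (r = 0.747). Outside the 3 genes, the gene most like C1qa was ENSRNOG00000021157 (r = 0.990), which no table used here pairs with a symbol. Its signal was 740.6 and 1013 in sham1 and sham2, 1352 (MI2) to 2854 (MI162) in MI, 726 (P695) to 1044 (P985) in the Patch libraries other than P699, and 2525 in P699. The gene most like C3 was ENSRNOG00000010941 (r = 0.978), at 57.7 and 59.5 in sham, 50.2 (MI2) to 228 (MI162) in MI, 62.5 (P697) to 85.4 (P695) in the Patch libraries other than P699, and 180.3 in P699. Both were picked for their likeness over these same libraries, so their values are a description.

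Since whole heart tissue was measured, more cells that make a transcript and more transcript per cell cannot be told apart for any of these genes. Marker genes of macrophages, fibroblasts, liver and other cells, and the other complement genes, were not analysed here because no ID could be paired with a symbol. Their part in the results was not tested.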

How the data were processed

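RNA from rat hearts was sequenced after selection of polyadenylated RNA, per the labels' protocols. The deposited table holds a normalized signal for each gene and library. The submitters' processing notes name HISAT2, SAMtools, featureCounts, DESeq2 and the rn6 build without role or order. Annotation and strand use are not given in the sources used here. Of the 12 samples described, 4 per group, each column was placed by its name. Columns not matching any label (2, named ctrl) were not used. Whether they are the other 2 of the 4 sham samples is not known, and each comparison with sham rests on 2 libraries.

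All deposited signal values were whole multiples of 1 step per library within 0.001 (100% of values, with the largest distance 0.000204), and division by the step gave reads. Such per-library scaling hides a change that most genes have in common. The 17091 genes whose mean signal reached 1 entered a linear model of log2(signal + 1) in limma (version 3.58.1, R version 4.3.3), with moderated variances that follow a mean trend, the 3 groups in one fit, and Benjamini-Hochberg adjustment over all genes tested. Differences on this scale understate changes of low genes. Calls were made at an adjusted p under 0.05. Exact permutation tests (9 in all, not adjusted) used scipy 1.17.1 on the same log2 values. edgeR 4.0.16 and DESeq2 1.42.0 were run on the recovered reads as alternatives. The limma and edgeR fits, but not DESeq2, were tested on simulated data. The members, the motifs and the lists were chosen with earlier results of these data known. The most similar genes were to be named by symbol, 5 per gene, by highest Pearson correlation among genes whose mean signal reached 50. With no symbols, 1 ID was given for C1qa and 1 for C3. The preset complement and cell marker lists were not analysed here. Fits without MI2 and P699 together were added after seeing the data; they leave out libraries partly by the outcome measured and are no test of the groups. An NF-kB motif was searched as well, and its result is not given here.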

Additional observations from a re-analysis of the deposited data

Results flagged for a closer look

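In 14 sets of 4 library values (the signals of the 3 genes, their 2 ratios, total reads and genes at 0, in MI and in Patch), the library farthest out was compared with the range of its set. The signals were used as deposited, not as log2 values, and the same check on log2 values was not run. A library lay far from the others in 3 sets. The 0.7 sets expected by chance assume normally distributed values, which was not tested and which skewed signals need not meet. No excess over chance is therefore read from this count. The sets are also not independent, and 2 of the 3 concern P699.

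P699 had a C1qa signal of 4548, where the next Patch library, P985, had 1932. It also had a C3 signal of 1271, where the next, P695, had 159. In MI2 5474 genes were at 0, against 2736 in MI165, the next highest of its group. The causes were not tested.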

How the results depend on the processing

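The numbers 1 and 2 occur in the column names of both sham and MI, while the other MI and all Patch columns carry no matching number, so a replicate block could be fitted for MI versus sham alone. Nothing says that the numbers pair animals, and the differences between numbers 1 and 2 in sham and in MI hardly correlated across genes (r = 0.024). With the replicate block 1913 genes were called, and the differences were 0.94 for C1qa (limma adjusted p 0.253), 0.65 for C1qb (0.376) and 1.99 for C3 (0.382), where the block leaves the difference to MI1 and MI2 against sham1 and sham2. No paired analysis was possible for the Patch comparisons because the Patch columns share no number with the others. The planned counts over the complement list were not run, since no ID could be paired with a symbol. Each of the 9 differences of C1qa, C1qb and C3 kept its direction in the 24 or 25 alternatives run for it, and 22 of the 219 values moved past the threshold. For MI versus sham these were, with sample weights, C1qa at 1.25 (limma adjusted p 0.0295), C1qb at 1.05 (0.0419) and C3 at 4.37 (0.0125). In DESeq2 they were C1qa at 1.12 (adjusted p 0.0490) and C3 at 4.56 (0.0136), and in edgeR without MI2, chosen after seeing the data, C3 at 4.98 (adjusted p 0.0359), but not C1qa at 1.29 (0.0686). Without MI2 and P699 together, also chosen after seeing the data and partly by these values, limma gave 1.29, 1.08 and 4.60 for C1qa, C1qb and C3 in MI versus sham and −1.12, −1.05 and −3.46 in Patch versus MI (adjusted p 0.00157 to 0.00970), and edgeR gave 1.27, 1.06 and 4.96, and −1.11, −1.03 and −3.65 (adjusted p 0.00397 to 0.0159). The other 4 came from leaving out a library. Leaving out one library in turn gave 0.77 (without sham1) to 1.47 (without sham2) for C1qa, 0.61 to 1.17 for C1qb and 2.55 (without MI162) to 4.60 (without MI2) for C3 in MI versus sham. For Patch versus MI it gave −0.94 (without P699) to −0.38 (without P695) for C1qa, −0.86 (without P699) to −0.34 (without P695) for C1qb and −2.54 (without MI2) to −0.49 (without MI162) for C3, with −0.67 without P697. With sample weights C3 was at −2.62 (limma adjusted p 0.0671). The causes were not tested. Over all alternatives the adjusted p for MI versus sham ranged from 0.00433 to 0.471 (C1qa), 0.00970 to 0.551 (C1qb) and 0.00157 to 0.440 (C3).

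The number of genes called in MI versus sham, 2636, became 3918 by DESeq2, 599 with only the 2 groups compared, 1519 with no trend, 5679 with sample weights, 4687 in edgeR without MI2, 4867 in limma and 4586 in edgeR without MI2 and P699, and 7 (without sham1) to 4979 (without MI2) without one library, with 24 without sham2 and 1448 without MI162. The number in Patch versus MI, 2251, became 3679, 1437, 948, 5383, 4643, 4856 and 4654 in the same order of settings, and 209 (without P695) to 4821 (without MI2) without one library. It was 292 without P985, 611 without P697, 649 without MI162, and 1446 and 1440 without sham1 and sham2. In Patch versus sham 0 became 15 in DESeq2, 10 with sample weights, and 0 to 2 (without P695) without one library. Scaling to equal totals moved the median of all genes to 0.242 and −0.167 in MI versus sham and Patch versus MI, and turned the share of higher calls from 47.3% to 73.5% and from 58.6% to 30.2%. Relative to those medians C1qa was at 1.12 and −0.60, C1qb at 0.89 and −0.57, and C3 at 3.41 and −1.36. The fit of MI and sham alone had 73.0% of its calls higher. Depth limits C3 most, with 31 to 50 reads in sham and 42 in MI2.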
